A study of Rattus norvegicus with 12 samples.

Results

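The 6 transcription factors of the nephron lineage named here were followed in injured rat kidneys: Sox4, Sox9, Pax2, Pax8, Lhx1 and Hnf4a. They were taken as the array rows annotated with exactly 1 of these symbols, which gave 1 row for each factor and 6 genes of the 18166 measured. Kidney RNA had been hybridised to 12 arrays from 12 animals, at day 2 or day 7 after ischemia-reperfusion injury (IRI), a period of stopped renal blood flow followed by its return. Each day had 3 arrays of placebo-treated and 3 of inhibitor-treated rats, which makes 4 groups of 3. All 4 groups had IRI, and no group without injury was part of the comparison. Anti-miR-182 is an inhibitor of the microRNA miR-182. The sources used here give neither strain, age and sex of the rats nor dose, chemistry and timing of the inhibitor. A description field speaks of a zero-hour biopsy, which goes against the days in the sample titles, and the groups follow the titles.

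Nephrons form in the embryo when mesenchymal progenitor cells turn into epithelium and are then patterned into segments. Pax2 and Pax8 encode paired-box factors needed for the nephric lineage and the conversion to epithelium. Lhx1 encodes a LIM homeodomain factor of the forming tubule, and Sox4 and Sox9 encode SOX-box factors of the developing tubule. Hnf4a encodes a nuclear receptor that switches on the transport and metabolism genes of mature proximal tubule cells. After injury surviving tubule cells are known to lose mature features for a time and to take up parts of the developmental programme, Sox9 and Pax2 among them, before the epithelium is rebuilt.

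Sequences of 2 kinds are shown, both taken from RefSeq on the rat build GRCr8. The first is the target of the inhibitor, mature rno-miR-182 from chr4:59752249-59752273 on the minus strand, with bases 2 to 8, the seed that pairs with messenger RNAs, in capitals.
rno-miR-182: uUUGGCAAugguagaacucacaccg
The second is the DNA just upstream of the 2 members with the largest differences between days as deposited, Hnf4a and Lhx1, 250 bases ending at the base before each annotated start. Hnf4a has 2 annotated starts 35616 bases apart on the plus strand, at chr3:172605970-172606219 (upstream) and chr3:172641586-172641835 (downstream). Lhx1 lies on the minus strand, with its window at chr10:69901077-69901326. Capitals mark the HNF1 core GTTAAT, which reads ATTAAC on the printed strand, and no other letters are capitals.
Hnf4a upstream start: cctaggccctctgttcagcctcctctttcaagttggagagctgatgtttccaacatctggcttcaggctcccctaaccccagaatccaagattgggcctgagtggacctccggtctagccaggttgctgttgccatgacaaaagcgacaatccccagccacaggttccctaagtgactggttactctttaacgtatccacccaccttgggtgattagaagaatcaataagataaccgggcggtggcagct
Hnf4a downstream start: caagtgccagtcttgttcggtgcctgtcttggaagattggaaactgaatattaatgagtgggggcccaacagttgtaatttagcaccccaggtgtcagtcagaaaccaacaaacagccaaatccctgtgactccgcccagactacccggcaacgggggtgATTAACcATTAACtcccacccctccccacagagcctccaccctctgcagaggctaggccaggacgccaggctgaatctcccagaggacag
Lhx1: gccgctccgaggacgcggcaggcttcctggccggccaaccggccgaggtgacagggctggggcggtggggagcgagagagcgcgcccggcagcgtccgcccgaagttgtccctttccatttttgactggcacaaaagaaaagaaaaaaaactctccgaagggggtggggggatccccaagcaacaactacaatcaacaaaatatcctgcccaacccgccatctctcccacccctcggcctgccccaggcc
The downstream window of Hnf4a held 2 such cores, at bases -90 to -85 and -83 to -78 from the start, a single base apart. GTTAAT was found on either strand in 6.45% of 33469 windows of this length. A further 4 words were searched on both strands and were found in no window of the members: the SOX core AACAAT (10.33% of all windows), the HNF4 core AGGTCA (14.06%), its extended form CAAAGTCCA (0.34%) and the LIM homeodomain core TAATTA (4.86%). None of the 5 words contains another. A match is a string of letters and not a shown site, and a missing match says only that the letters were not in this window.

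The windows of the members differed in base composition. The upstream DNA of Pax2 (chr1:253565672-253565921, plus strand) was 71.2% G and C with 25 CpG dinucleotides, more G and C than 93.1% of all windows. Lhx1 had 63.2% and 18 CpG, and Pax8 (chr3:27640632-27640881, minus strand) had 60.8% and 9 CpG. The Hnf4a windows had 52.4% (upstream) and 54.8% (downstream) with 5 CpG each, close to the median of 51.2% over all windows. The CpG content relative to that expected from the base composition was 0.799 in Pax2, 0.725 in Lhx1, 0.413 in Pax8, 0.295 and 0.271 in Hnf4a, and 0.383 in the median window. The array row of Hnf4a is tied to neither start by the annotation used, so its values may hold transcripts of both.

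The signals are deposited log2 values, so a difference of 1 is a doubling. Over all arrays the mean log2 level was 8.52 for Pax8 and 8.37 for Hnf4a, above 86.2% and 84.6% of the gene rows. Pax2 (7.22) and Sox4 (7.03) lay above 68.4% and 64.7% of rows, Lhx1 (6.08) above 40.5% and Sox9 (5.55) above 26.8%. Levels of different rows come from different probes and are not an order of transcript amounts, and Sox9 and Lhx1 lay in the dimmer part of the array. Kidney identity was present on every array: the proximal tubule transporter Slc34a1 ran from 9.28 to 10.5 (median 10.1) and Umod, uromodulin of the thick ascending limb, from 11.2 to 11.95. Aqp2 of the collecting duct ran from 7.09 to 8.03 and Nphs1 of podocytes from 6.22 to 7.15. The liver marker Alb stayed between 4.37 and 5.10 and the adrenal marker Cyp11b1 between 3.39 and 3.99. The fat marker Adipoq (6.16 to 6.83) and the urothelial marker Upk2 (6.22 to 6.85) were not as low. They lay above 50.5% and 50.8% of gene rows, near Nphs1 (57.7%).

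Day 2 arrays had higher medians (5.98 to 6.11) than day 7 arrays (5.84 to 5.93), and 190 rows of the table hold values on the day 7 arrays only. The sources used here do not say whether the days were normalized apart, so differences between days are given as deposited and again after putting the arrays on 1 scale. The median SD of a gene was 0.112 in placebo and 0.179 under anti-miR-182 at day 2, and 0.146 and 0.137 at day 7. Precision is limited by the small number of arrays. In whole kidney, fewer cells of a type and less RNA per cell cannot be told apart.

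**Figure D1:**
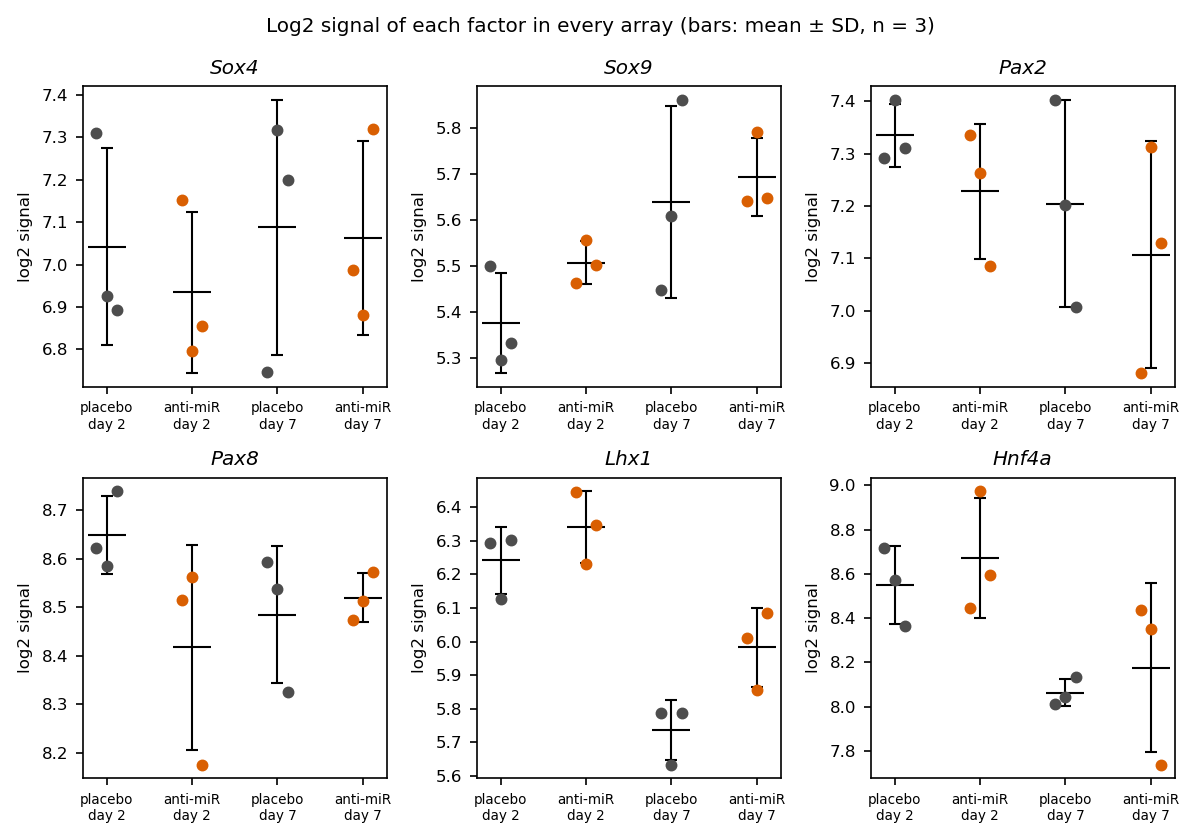
Log2 signal of the 6 factors (1 panel each, vertical axis with its own range) in every array of the 4 groups; points are arrays, and bars give the mean and SD over 3 arrays. The day 7 arrays of Lhx1 lie below its day 2 arrays, and the groups of Sox4 and Pax2 overlap throughout.

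Sox4 encodes a SOX factor expressed in the developing nephron. Its log2 signal was 7.31, 6.92 and 6.89 in placebo and 7.15, 6.80 and 6.86 under anti-miR-182 at day 2. At day 7 it was 6.75, 7.32 and 7.20 in placebo and 6.99, 6.88 and 7.32 under anti-miR-182. Every group spanned much the same range, and no 2 neighbouring groups in the order of means differed by more than their pooled SD. The treatment difference (anti-miR-182 minus placebo) was -0.11 ± 0.17 (SE) at day 2 and -0.03 ± 0.17 at day 7, with adjusted p-values of 0.931 and 0.999 in limma.

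Sox9 encodes the SOX factor best known for its induction in tubule cells that repair the epithelium. Its log2 signal was 5.50, 5.29 and 5.33 in placebo and 5.46, 5.56 and 5.50 under anti-miR-182 at day 2. It was 5.45, 5.61 and 5.86 in placebo and 5.64, 5.79 and 5.65 under anti-miR-182 at day 7. The placebo group at day 2 was the lowest, with a mean of 5.38 ± 0.11 (SD, n = 3), followed by 5.51 ± 0.05, 5.64 ± 0.21 and 5.69 ± 0.08 for treated at day 2, placebo at day 7 and treated at day 7 in turn. The gap between the 2 day 2 groups, 0.13, exceeded their pooled SD of 0.08, but 1 placebo array lay among the treated ones. The treatment difference was 0.13 ± 0.12 at day 2 and 0.05 ± 0.12 at day 7, with adjusted p-values of 0.869 and 0.999 in limma.

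Pax2 stays on in parts of the adult collecting duct and returns in regenerating tubules. Its log2 signal was 7.29, 7.40 and 7.31 in placebo and 7.34, 7.26 and 7.09 under anti-miR-182 at day 2. At day 7 the values were 7.40, 7.20 and 7.01 in placebo and 6.88, 7.31 and 7.13 under anti-miR-182. All groups overlapped, and the placebo arrays at day 2 were the closest together (SD 0.06). The treatment difference was -0.11 ± 0.13 at day 2 and -0.10 ± 0.13 at day 7, with adjusted p-values of 0.91 and 0.999 in limma.

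Pax8, the paralog of Pax2 that is kept in most adult nephron segments, gave the largest treatment difference of the 6 factors at day 2. Its log2 signal was 8.62, 8.59 and 8.74 in placebo and 8.52, 8.56 and 8.17 under anti-miR-182, so that every treated array lay below every placebo array. Such a separation in either direction was seen for 12.3% of all genes at day 2. The difference was -0.23 ± 0.12 with a 95% interval from -0.49 to 0.03 (0.852-fold), an unadjusted p of 0.0804 and an adjusted p of 0.764 in limma. Without replicate 3 of the treated group, the lowest array, it was -0.11 ± 0.11. At day 7 the signals were 8.59, 8.54 and 8.32 in placebo and 8.47, 8.51 and 8.57 under anti-miR-182, which overlapped, and the difference was 0.04 ± 0.12. The change of the treatment difference from day 2 to day 7 was 0.27 ± 0.17 with an adjusted p of 0.999 in limma.

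Lhx1 encodes a factor required for early tubule formation. At day 2 its log2 signal was 6.29, 6.13 and 6.30 in placebo and 6.45, 6.23 and 6.35 under anti-miR-182, and the groups overlapped. At day 7 it was 5.79, 5.63 and 5.79 in placebo and 6.01, 5.86 and 6.09 under anti-miR-182, and every treated array was above every placebo array. A separation of that kind, in either direction, was seen for 7.26% of all genes at day 7. The day 7 difference was 0.25 ± 0.11 with a 95% interval from 0.01 to 0.48 (1.19-fold), an unadjusted p of 0.0418 and an adjusted p of 0.999 in limma. The mean difference over both days was 0.17 ± 0.08 (1.13-fold), with an unadjusted p of 0.0436 and an adjusted p of 0.888 in limma, and the difference between the days was 0.15 ± 0.16 (adjusted p 0.999).

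Hnf4a had log2 signals of 8.72, 8.57 and 8.37 in placebo and 8.45, 8.97 and 8.59 under anti-miR-182 at day 2. At day 7 they were 8.01, 8.04 and 8.13 in placebo and 8.44, 8.35 and 7.74 under anti-miR-182. The treated group at day 7 was the most variable of the 4 (SD 0.38), with 2 arrays above and 1 below all placebo arrays of that day. The treatment difference was 0.12 ± 0.18 at day 2, with a 95% interval from -0.26 to 0.51, and 0.11 ± 0.18 at day 7, with an interval from -0.27 to 0.50. The adjusted p-values in limma were 0.924 and 0.999. Without replicate 3 of the treated day 7 group the day 7 difference was 0.33, and without replicate 1 it was -0.02.

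**Figure D2:**
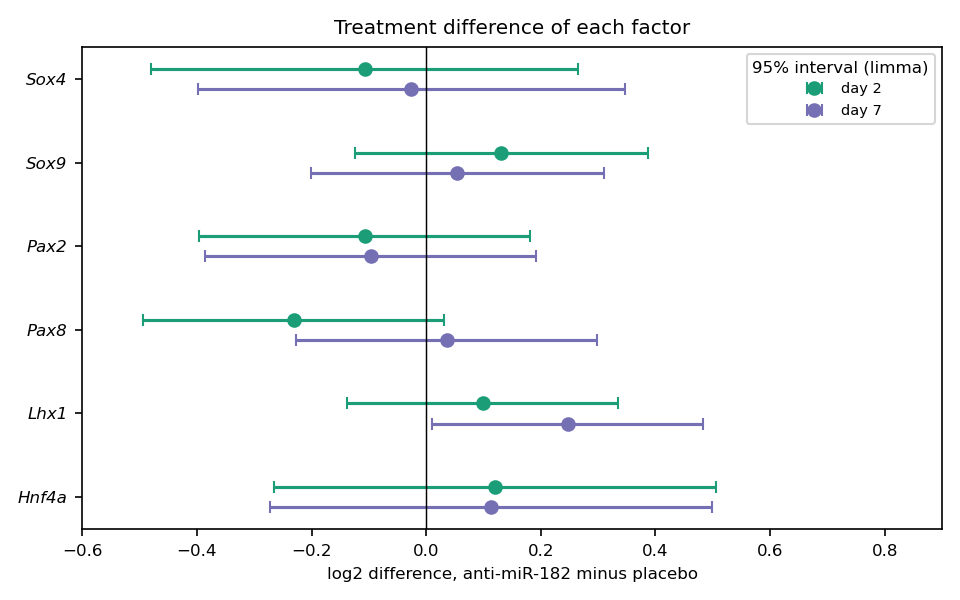
Log2 difference between anti-miR-182 and placebo for each factor at day 2 and at day 7, with 95% intervals from limma. Every interval but that of Lhx1 at day 7 (0.01 to 0.48) includes 0, and the interval of Pax8 at day 2 runs from -0.49 to 0.03.

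No factor passed an adjusted p under 0.05 in any of the treatment comparisons in limma, under the settings run. At an unadjusted p under 0.05 there were 0 of 6 factors at day 2 and 1 (Lhx1) at day 7, against 6.61% and 3.26% of all genes. For the mean over both days 1 factor (Lhx1) and 5.27% of genes were under that level, and for the difference between days 0 factors and 3.92% of genes. Over all 18166 genes limma called 0 at day 2 (0%), 0 at day 7 (0%), 1 for the mean over days (0.00550%) and 0 for the difference between days (0%). The intervals of the 6 factors reached at most 0.51 in either direction within a day and differences beyond that lay outside the interval of every factor. The treatment and day comparisons share arrays, so a high or low array enters both.

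Between the days, Lhx1 was lower at day 7 in both arms. As deposited it fell by 0.50 on the log2 scale in placebo (SE 0.11, 0.705-fold, adjusted p 0.00553 in limma) and by 0.36 under anti-miR-182 (SE 0.11, 0.781-fold, adjusted p 0.0288). In each arm the 3 day 7 arrays lay below the 3 day 2 arrays, a separation seen in either direction for 48.3% and 40.4% of genes. It was the only factor of the 6 past the threshold in either arm, where limma called 28.0% and 27.5% of all genes, 23.7% and 24.9% as lower. The median gene itself differed by -0.18 and -0.21 in these arms, a general shift that is smaller than the fall of Lhx1.

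Setting all arrays to the same median left Lhx1 at -0.36 ± 0.12 in placebo (adjusted p 0.0503 in limma) and -0.17 ± 0.12 under anti-miR-182 (adjusted p 0.352), neither past the threshold. On that scale its values relative to the array median were -0.24, -0.35 and -0.18 in placebo at day 2 and -0.53, -0.72 and -0.58 at day 7, still without overlap. Under anti-miR-182 they were -0.11, -0.34 and -0.08 at day 2 and -0.31, -0.52 and -0.21 at day 7, which overlapped. After quantile normalization of all 12 arrays the difference was -0.39 ± 0.11 in placebo (adjusted p 0.0353, with 7.90% of genes passing as lower) and -0.18 ± 0.11 under anti-miR-182 (adjusted p 0.303). The placebo fall of Lhx1 therefore passed on 2 of these 3 scales and the fall under anti-miR-182 on 1. As deposited the placebo fall passed with each of the 12 arrays left out in turn. The fall under anti-miR-182 did not pass without replicate 1 at day 2 (adjusted p 0.0733), replicate 1 at day 7 (0.0633) or replicate 2 at day 7 (0.0946), all of the treated groups, or with a term for animal codes over 90 (0.158). That term nearly follows the day: every day 2 code was over 90, and at day 7 only 99 (anti-miR-182) and 100 (placebo) were. With the medians set equal and an array left out, the placebo fall passed in 4 of 12 fits and the other in 0 of 12.

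Hnf4a was lower at day 7 by a like amount in both arms but did not pass. As deposited the difference was -0.49 ± 0.18 in placebo (0.713-fold, adjusted p 0.0564 in limma) and -0.50 ± 0.18 under anti-miR-182 (0.709-fold, adjusted p 0.0537), and in both arms every day 7 array lay below every day 2 array, a separation that 48.3% and 40.4% of all genes showed in either direction. The days overlapped under anti-miR-182 with the array medians set equal, and in both arms after quantile normalization. With equal medians the difference was -0.34 ± 0.17 and -0.31 ± 0.17 (adjusted p 0.182 and 0.243), and after quantile normalization -0.20 and -0.23 (adjusted p 0.457 and 0.389). As deposited the placebo difference passed when treated replicate 2 of day 2 was left out (adjusted p 0.0454) and when treated replicate 3 of day 7 was (0.0234), arrays which enter it only through the shared estimate of the spread. Both arms passed with array weights in limma (adjusted p 0.0357 and 0.0451) and with a term for animal codes over 90 (-0.73 and -0.74, adjusted p 0.0227 and 0.0221). As every day 2 code and few day 7 codes were over 90, that term cannot be separated well from the day. Under anti-miR-182 the difference was -0.28 (adjusted p 0.234) without replicate 3 at day 7, and it passed without replicate 1 of day 7 (-0.63, adjusted p 0.0416) or of day 2 (-0.61, adjusted p 0.0354).

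Sox9 moved the other way. As deposited it was 0.26 ± 0.12 higher at day 7 in placebo (1.20-fold, adjusted p 0.111 in limma) and 0.19 ± 0.12 higher under anti-miR-182 (1.14-fold, adjusted p 0.252), and it did not pass. Relative to the array medians its values were -1.04, -1.18 and -1.15 in placebo at day 2 and -0.87, -0.75 and -0.51 at day 7. Under anti-miR-182 they were -1.09, -1.02 and -0.92 at day 2 and -0.68, -0.59 and -0.65 at day 7. On that scale every day 7 array was above every day 2 array in both arms, a separation found in either direction for 41.5% and 30.9% of genes. Sox9 then rose by 0.41 ± 0.11 in placebo (adjusted p 0.0218) and by 0.37 ± 0.11 under anti-miR-182 (adjusted p 0.0403), where 17.8% and 13.7% of genes passed, 8.15% and 6.23% as higher. After quantile normalization, where 8.14% and 7.22% of genes passed as higher (16.0% and 14.8% in either direction), the rises were 0.35 ± 0.11 (adjusted p 0.0405) and 0.37 ± 0.11 (adjusted p 0.0333). Among the alternatives that kept every array, Sox9 passed only with these 2 rescalings. The smallest rise over those alternatives was 0.15 in placebo and 0.07 under anti-miR-182. With the medians set equal and each array left out in turn, the placebo rise passed in 9 of 12 fits and the rise under anti-miR-182 in 4 of 12. The placebo rise, 0.41 with all arrays, did not pass without placebo replicate 2 (0.38, adjusted p 0.0813) or 3 (0.40, adjusted p 0.0735) of day 2 or replicate 3 of day 7 (0.31, adjusted p 0.0862).

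Pax2, Pax8 and Sox4 passed in neither arm on any of the 3 scales. Pax2 differed by -0.13 ± 0.13 in placebo and -0.12 ± 0.13 under anti-miR-182 as deposited, and by 0.02 and 0.06 with the medians set equal. Pax8 differed by -0.16 ± 0.12 and 0.10 ± 0.12 as deposited, and its largest value was 0.35 ± 0.12 under anti-miR-182 after quantile normalization (adjusted p 0.0759 in limma). Sox4 was higher at day 7 on every scale, by 0.05 and 0.13 as deposited and by 0.20 and 0.31 with the medians set equal (adjusted p 0.45 and 0.242).

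**Figure D3:**
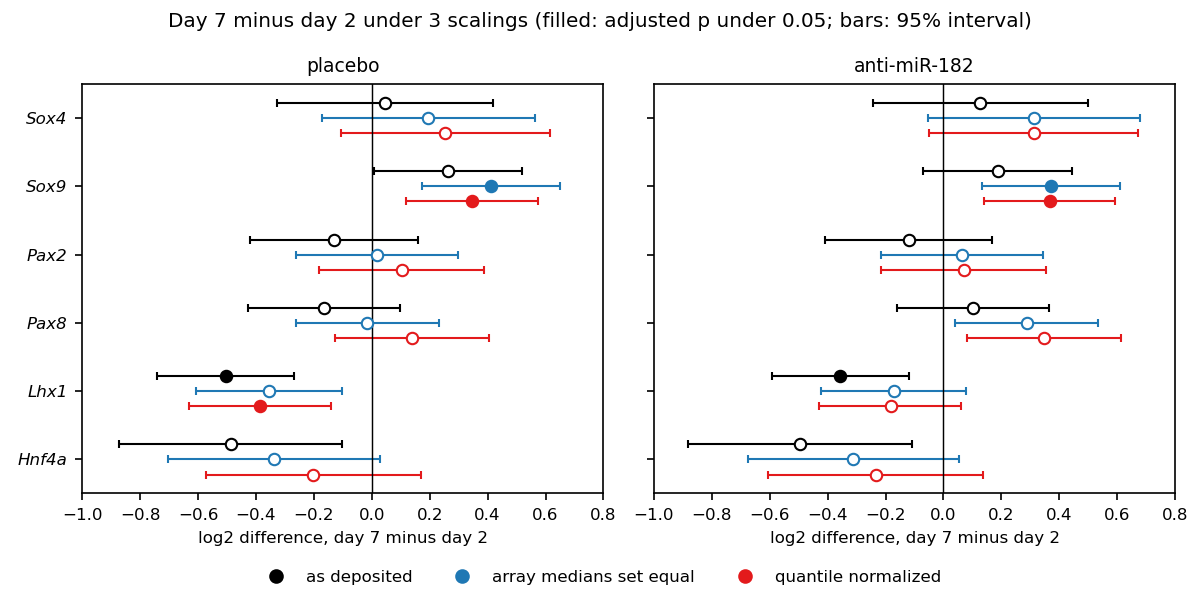
Log2 difference between day 7 and day 2 for each factor, in placebo (left) and under anti-miR-182 (right), as deposited, with array medians set equal and after quantile normalization; bars are 95% intervals and filled points passed an adjusted p under 0.05 in limma. Lhx1 is filled as deposited in both arms (-0.50 and -0.36), and Sox9 is filled on the rescaled values (0.41 and 0.37 with equal medians).

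Levels of proximal tubule markers also differed between the days. The mean log2 level of 10 markers ran from 10.4 to 10.5 in placebo and from 10.1 to 10.6 under anti-miR-182 at day 2, and from 9.61 to 9.75 and from 9.38 to 10.3 at day 7. All 10 were lower at day 7 in both arms, and 6 and 3 of them passed in limma, where 23.7% and 24.9% of all genes passed as lower. Within day 7 the array with the lowest Hnf4a (7.74, anti-miR-182 replicate 3) also had the lowest marker level (9.38). Over the 6 arrays of a day Hnf4a and the marker level had a Pearson r of 0.72 at day 2 (exact permutation p 0.118, Spearman rho 0.771, p 0.103) and 0.946 at day 7 (exact permutation p 0.0125, rho 0.829, p 0.0583). Without the 2 arrays farthest from the median marker level r was 0.91 and 0.79. Among 48 such pairs of a factor and a marker list the adjusted p was 0.63 and 0.533 for Pearson and 0.653 for Spearman on both days, so neither passed. Markers of other cell types differed between days too. Higher in both arms were 7 of 7 macrophage markers (3 and 2 passed in limma, against 4.22% and 2.68% of all genes). Collecting duct markers were lower in 6 of 8 in placebo (3 passed) and 8 of 8 under anti-miR-182 (6 passed). Median differences were -0.45 and -0.33 for the proximal tubule markers, and -0.57 and -0.93 for 6 distal convoluted tubule markers (2 and 4 passed). For 4 podocyte markers they were -0.69 and -0.40 (2 passed in each arm), and for 6 loop of Henle markers 0.055 and -0.082 (0 passed). The part of these cell types in the values of the 6 factors was not tested.

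**Figure D4:**
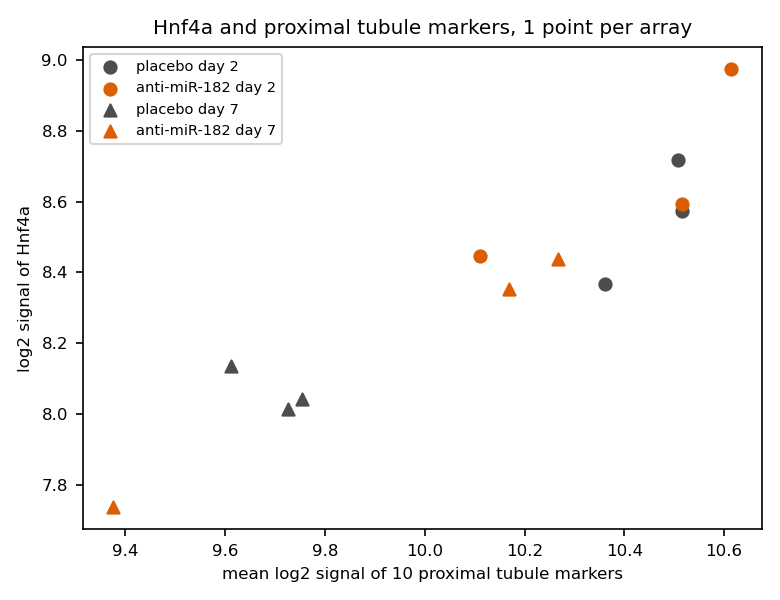
Log2 signal of Hnf4a against the mean log2 signal of 10 proximal tubule markers, 1 point per array; colours give the treatment and shapes the day. The array at the lower left is anti-miR-182 replicate 3 at day 7 (7.74 and 9.38), and most day 2 arrays lie to the upper right.

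Of 25 genes reported to depend on HNF4A 19 were measured, and at day 7 18 were lower in placebo, 10 of them past the threshold in limma, with a median difference of -0.52 against -0.18 for all genes. Under anti-miR-182 16 were lower and 6 passed, with a median of -0.33 against -0.21. Of all 18166 genes 13073 were lower in placebo and 13886 in the treated arm, 23.7% and 24.9% past the threshold. Pck1, the rate-limiting enzyme of gluconeogenesis, fell by 2.50 in placebo (SE 0.29, adjusted p 0.000153) and fell by 2.03 under anti-miR-182 (adjusted p 0.000544). Fbp1, another gluconeogenic enzyme, fell by 1.46 and 0.93 (adjusted p 0.00141 and 0.0153). Slc22a6, the organic anion transporter OAT1, was lower in both arms (-1.65 and -0.92, adjusted p 0.0017 and 0.0315 in limma). With the array medians set equal 6 of the 19 passed as lower in placebo and 1 under anti-miR-182, where 9.62% and 7.44% of all genes did. After quantile normalization 4 and 1 passed, where 7.90% and 7.62% of all genes did, Pck1 on each occasion. Leaving out 1 array at a time gave 7 to 14 passing in placebo and 1 to 9 under anti-miR-182, the 1 without replicate 3 of either treated group. In all, 6 of the proximal tubule markers are also in this list.

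Of 9 other proximal tubule factors measured, 8 were lower at day 7 in each arm. In limma 4 passed as lower in placebo and 2 under anti-miR-182, where 23.7% and 24.9% of all genes did. The list medians were -0.39 and -0.21, against -0.18 and -0.21 for all genes. Hnf4g, the paralog of Hnf4a, fell by 1.08 (SE 0.17, adjusted p 0.000964 in limma) and by 0.75 (adjusted p 0.00737). Ppara, the nuclear receptor of fatty acid oxidation, fell by 1.14 and 1.03 (adjusted p 0.00336 and 0.00592), and Nr1h4, the bile acid receptor FXR, fell by 0.71 in placebo (adjusted p 0.00952). On either rescaled version 2 still passed in placebo (Hnf4g and Ppara) and 1 under anti-miR-182 (Ppara).

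Most relatives of the SOX and PAX members did not pass. Of 16 Sox genes measured, 1 passed as higher and 1 as lower in each arm as deposited. Of all genes 4.22% and 2.68% passed as higher and 23.7% and 24.9% as lower. With equal medians 3 passed as higher and 0 as lower in each arm (Sox11, Sox13 and the member Sox9). On that scale 8.15% and 6.23% of all genes passed as higher and 9.62% and 7.44% as lower. Sox11, of the same SOX subgroup as Sox4, rose by 0.64 in placebo (SE 0.11, adjusted p 0.00179 in limma) and by 0.68 under anti-miR-182 (adjusted p 0.00137), and by 0.79 and 0.86 with equal medians. Sox17, an endothelial factor, fell by 0.45 in placebo as deposited (adjusted p 0.015), and Sox8 fell by 0.38 under anti-miR-182 (adjusted p 0.0496). Neither passed with equal medians. Sox13 passed as higher on both rescaled versions in both arms and was named after its values were seen. Of 8 Pax genes 1 passed in placebo and 3 under anti-miR-182, where 28.0% and 27.5% of all genes did. Pax6 rose by 0.53 and 0.51 (adjusted p 0.00785 and 0.00935). Under anti-miR-182 Pax9 rose by 0.41 (adjusted p 0.0447) and Pax7 fell by 0.52 (adjusted p 0.0109). With equal medians Pax6 in both arms (0.68 and 0.70) and Pax9 under anti-miR-182 (0.60) still passed. The fall of Pax7 did not (-0.33, adjusted p 0.0625). Sox4, Sox9, Pax2 and Pax8 are counted in these families, and Pax6, Pax7 and Pax9 are best known outside the kidney.

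Factors of nephron progenitors moved in both directions. Of 9 measured, 1 passed as higher and 2 as lower in placebo as deposited, and 0 as higher and 2 as lower under anti-miR-182. Of all genes 4.22% and 2.68% passed as higher and 23.7% and 24.9% as lower. Foxd1, a marker of stromal progenitors, rose by 0.45 in placebo (adjusted p 0.00955 in limma). Cited1, of self-renewing nephron progenitors, fell by 0.53 and 0.60 (adjusted p 0.0125 and 0.00663), and Six2, which keeps that pool, fell by 0.37 and 0.49 (adjusted p 0.0455 and 0.0143). With equal medians Cited1 still passed as lower in both arms and Six2 did not pass. Of all genes 9.62% and 7.44% then passed as lower and 8.15% and 6.23% as higher. On that scale Osr1 rose in placebo (0.55, adjusted p 0.04), and under anti-miR-182 Eya1 (0.65, adjusted p 0.0242) and Sall1 (0.50, adjusted p 0.0219) rose, all 3 being progenitor factors named after their values were seen. Of 13 early patterning factors only Etv5, an ETS factor downstream of GDNF and RET signalling, passed as deposited, falling by 0.45 and 0.52 (adjusted p 0.0189 and 0.00976), and it did not pass on the rescaled versions. There Pou3f3, a POU factor of the same list, rose under anti-miR-182 (0.47, adjusted p 0.0223, with equal medians and 0.49, adjusted p 0.0182, after quantile normalization). In that arm 6.23% and 7.22% of all genes passed as higher on these 2 scales.

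Among 16 distal and collecting duct factors 3 passed as lower in placebo and 4 under anti-miR-182 as deposited, against 23.7% and 24.9% of all genes. As deposited 0 of them passed as higher. With equal medians Elf3, named after its values were seen, passed as higher in both arms (0.52 and 0.59). Esrrb, an orphan nuclear receptor, fell by 0.60 and 0.92 (adjusted p 0.00622 and 0.000598 in limma) and passed on every scale. Of 20 signals of nephron induction 4 passed as lower in each arm as deposited, where 23.7% and 24.9% of all genes did. Among the 4 was Gfra1, the GDNF co-receptor (-0.46 and -0.49). With equal medians 0 of these falls passed. On that scale Ret, the GDNF receptor, named after its values were seen, rose in placebo (0.39, adjusted p 0.0442), where 8.15% of all genes passed as higher. Of 18 tubule dedifferentiation genes 4 passed as lower and 0 as higher in placebo, and 3 as lower and 3 as higher under anti-miR-182. Of all genes 23.7% and 24.9% passed as lower and 4.22% and 2.68% as higher. Prom1, a membrane protein of scattered injured tubule cells, fell by 0.98 and 0.84 (adjusted p 0.00164 and 0.00369). Krt8, an epithelial keratin, fell by 0.55 and 0.82 (adjusted p 0.0142 and 0.00179). Itgb6 of the same list was also lower in both arms (-0.54 and -0.62, adjusted p 0.014 and 0.00692 in limma). The 3 that passed as higher under anti-miR-182 were Lcn2 (2.0045, adjusted p 0.0165), Cd44 (0.86, adjusted p 0.012) and Cdh6 (0.70, adjusted p 0.0486). None of these 3 passed in placebo, where they were also higher (0.32, 0.29 and 0.40 in turn). For the change of the treatment difference between days 0 of the 18 genes passed. Lcn2, Cd44 and Cdh6 were named for this comparison after their values were seen. With equal medians only Prom1 of the 18 passed in placebo, Krt8 there being at -0.40 (adjusted p 0.053). Under anti-miR-182 3 passed as higher and 3 as lower. Of all genes 8.15% and 6.23% then passed as higher and 9.62% and 7.44% as lower. After quantile normalization 2 passed as higher and 1 as lower in placebo, and 3 as higher and 2 as lower in the treated arm. There 8.14% and 7.22% of all genes passed as higher and 7.90% and 7.62% as lower.

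**Figure D5:**
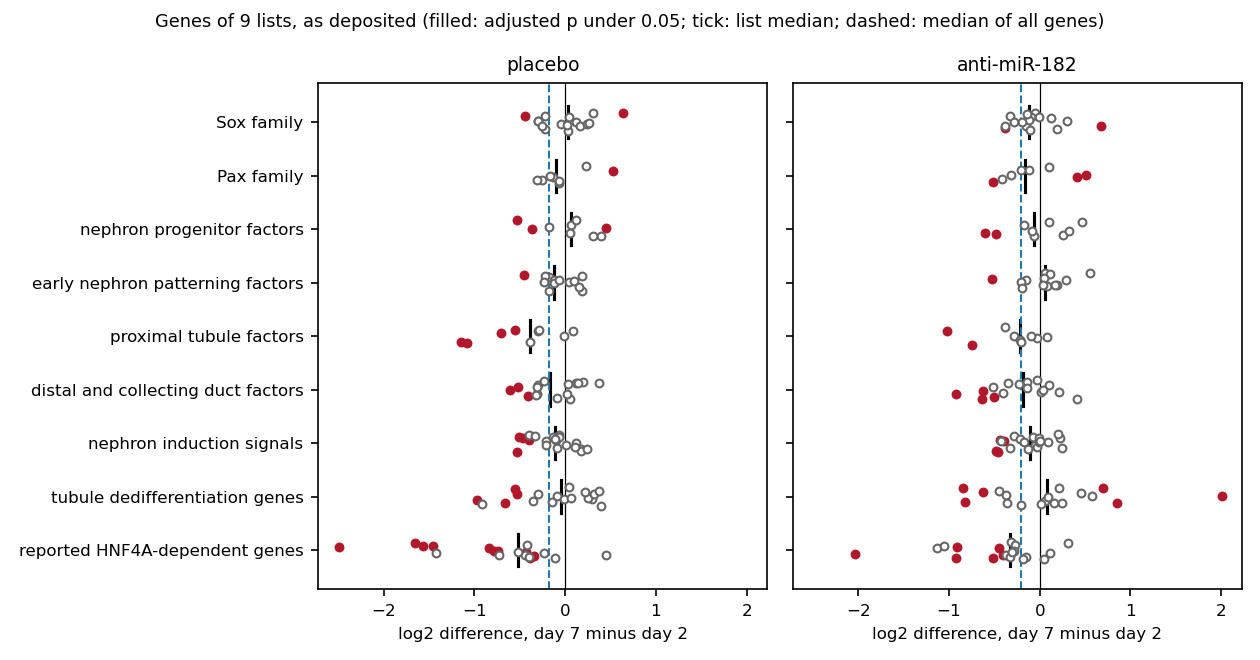
Log2 difference between day 7 and day 2 for every measured gene of the lists named on the vertical axis, in placebo (left) and under anti-miR-182 (right), as deposited. Filled points passed an adjusted p under 0.05 in limma, short black bars are list medians and the dashed line is the median of all genes (-0.18 and -0.21).

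In the treatment comparisons 0 genes of each of these lists passed in limma. At an unadjusted p under 0.05 stood 6.61% of all genes at day 2 and 3.26% at day 7. Of the HNF4A-dependent genes 16 of 19 were higher with the inhibitor at day 7, with a median of 0.26 against -0.001 for all genes, 3 of them at an unadjusted p under 0.05 (Cyp2e1, Fbp1 and Pck1, each with an adjusted p of 0.999). At day 2, 8 were higher and 11 lower, with a median of -0.04. The proximal tubule markers were higher in 9 of 10 at day 7, with a median of 0.30. Both medians rested in part on single arrays of the treated day 7 group: without its replicate 1 they were 0.11 and 0.10, without replicate 2 they were 0.20 and 0.15, and without replicate 3 they were 0.42 and 0.50. Other marker lists differed in the same comparison. All 7 macrophage markers and all 7 fibroblast markers were lower with the inhibitor at day 7 (medians -0.39 and -0.52), as were 5 of 6 urothelium markers (-0.53), and 1, 3 and 4 of them were at an unadjusted p under 0.05. The highest macrophage and fibroblast levels of that day were both in placebo replicate 2 (8.32 and 8.72). The treated arrays ran from 6.98 to 7.11 and from 7.56 to 7.58. Without that placebo array the medians of the HNF4A-dependent genes and proximal markers were 0.23 and 0.37, while the part of these cell types was not tested. Of the dedifferentiation genes 15 of 18 were lower with the inhibitor at day 2, with a median of -0.20, and 4 were at an unadjusted p under 0.05, first among them Cd44, the hyaluronan receptor (-0.70 ± 0.22, adjusted p 0.662). The patterning factor Pou3f3 was at -0.51 ± 0.13 at day 2 (unadjusted p 0.002, adjusted p 0.627).

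The factors showed no pairwise correlation that passed. Over the 15 pairs on each of the 2 days, 30 in all, the smallest adjusted p was 0.868 for Pearson and 0.786 for Spearman (exact permutation, two-sided). The paralogs Pax2 and Pax8 had a Pearson r of 0.801 at day 2 (exact permutation p 0.107, Spearman rho 0.371, p 0.497) and 0.621 at day 7 (exact permutation p 0.182, rho 0.714, p 0.136). Without the 2 arrays farthest from the median of Pax2 r was -0.045 and 0.663, so the day 2 value rests on those arrays.

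The genes whose pattern across arrays was most like that of each factor were ranked by the smaller of their Pearson r within day 2 and within day 7, over 6 arrays each. For Hnf4a these were Pnma8a (0.933), Dnajb12 (0.929) and Gatd3a (0.925). Lhx1 was followed most closely by Prf1 (0.904), Caskin1 (0.841) and Mtus1 (0.839), and Pax2 by Slc4a11 (0.894), St14 (0.884) and Tinagl1 (0.874). For Pax8 they were Ppp2r5d (0.895), Abhd12 (0.888) and Pax9 (0.868), for Sox4 Nmi (0.955), Sctr (0.853) and Usp42 (0.852), and for Sox9 Phf21b (0.91), Susd3 (0.907) and Tas2r139 (0.894). Uncharacterised loci and microRNA, ribosomal, mitochondrial ribosomal, olfactory and vomeronasal receptor genes were skipped in this ranking. The genes named are the highest of the rest and carry no test.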

How the data were processed

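RNA of 12 rat kidneys was measured on arrays, 3 in each of 4 groups. The authors deposited 1 table of 36685 rows of log2 values, made with RMA (background correction, normalization and summary of probes) per the submitters' processing notes. Its version is not given in the sources used here. Per the labels, 200 ng of RNA was amplified and labelled. Values ran from 1.48 to 13.4 and were used as deposited.

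The annotation names 1 gene for 18511 rows, several for 575 and lists 17599 rows not at all. Of the single symbols 18394 matched RefSeq and 117 did not. Rows without values at day 2 (190) were left out, and for 291 genes with several rows the brightest was kept, which gave 18166 genes. Limma 3.58.1 in R 4.3.3 (lmFit of 4 group means, eBayes, Benjamini-Hochberg over all genes, threshold 0.05) gave 6 comparisons, checked on simulated data. Errors are SE of the fit unless stated. Arrays of a group correlated at 0.974 or more, and none was a copy of another. Animal codes in the titles separate the 12 animals, but say nothing of their cages or days of surgery.

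Alternatives were quantile normalization, centring on array medians, a trend, the robust option, array weights, removal of the dimmest 25%, the mean of rows, each day alone, animal number above or below 90, a threshold of 0.1 and every array omitted in turn. Counts of list members under rescaling or with arrays left out, and Sox9 and Lhx1 with both, were added after the data were seen. The members and lists were chosen with earlier results of these data known. Named genes were the members, up to 3 genes of smallest p per list and the 3 most alike per member. Exceptions were the markers of tissue identity and the genes stated to be named after their values were seen. Of the members 4 had upstream sequence in the RefSeq table, and Sox4 and Sox9 are named only.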

Additional observations from a re-analysis of the deposited data

How the results depend on the processing

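No paired analysis was possible because the groups share no replicate numbers: the titles give only animal codes, each used once.

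No member passed in a treatment comparison under any alternative, and there 487 member values kept their direction and 29 turned. Genes passing at day 2 numbered 1 with array weights, each day alone, the animal covariate or an adjusted p under 0.1, against 0, and 0 to 1 with an array left out. At day 7 they numbered 0 to 3 with an array left out, for the mean effect 0 without the dimmest 25% and 0 to 4 with an array left out, and for the difference 0 to 1. Between days in placebo 5080 passed as deposited, 2914 after quantile normalization, 3228 after centring and 3198 to 5773 with an array left out. Under anti-miR-182 these were 5002, 2695, 2482 and 3069 to 5072. Members passing in placebo numbered 2, against 1, with quantile normalization, array weights, the animal covariate or an adjusted p under 0.1 (1 to 2 with an array left out), and under anti-miR-182 to 2 with array weights or an adjusted p under 0.1 (0 to 1).

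Signs turned for small values. After quantile normalization the change of the treatment effect between days was 0.0204 for Sox9 and -0.0333 for Pax2 (-0.0667 with array weights), and for Hnf4a it was 0.0275 after centring. Between days Pax2 was 0.10 (quantile) and 0.0182 (centred) in placebo and 0.0694 and 0.064 under anti-miR-182, and Pax8 was 0.14 in placebo (quantile). With an array left out the treatment difference at day 2 ran from -0.22 to 0.0262 for Sox4 and -0.0305 to 0.23 for Hnf4a. At day 7 it ran from -0.20 to 0.0881 for Sox4, -0.0421 to 0.17 for Sox9, -0.20 to 0.0166 for Pax2, -0.0447 to 0.0896 for Pax8 and -0.0185 to 0.33 for Hnf4a, and its mean over days from -0.15 to 0 for Sox4. Its change between days ran from -0.0888 to 0.20 (Sox4), -0.17 to 0.0342 (Sox9), -0.0919 to 0.12 (Pax2) and -0.14 to 0.21 (Hnf4a). Between days Sox4 ran from -0.0678 to 0.22 in placebo and -6e-04 to 0.24 under anti-miR-182, where Pax8 ran from -0.0185 to 0.17. The cause was not tested. Precision is limited by 3 arrays a group.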
